A study of Mus musculus with 4 samples.

Results

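The genes described here carry cells through mitosis: the cyclins and kinases that start it, the checkpoint that times it, the centromere and kinetochore proteins that attach chromosomes to the spindle, the proteins that fold the chromosomes, and those that build the spindle and divide the cell. They are 54 named genes, found by the gene name of each probe on the array, with the kinesin motors left out. All 54 had a probe (76 of the 55681 non-control probes), and all 54 were among the 18093 features tested. The genes were compared between NIH3T3 cells, an immortalised mouse embryonic fibroblast line, expressing wild-type EGFR (2 arrays) and NIH3T3 cells expressing a deletion mutant of EGFR (2 arrays). No treatment was applied in either group, and RNA was taken at steady state. Which residues were deleted, whose receptor it is, the vector and the number of clones are not given in the labels, and the study's title places the oncogenes in lung cancer. Per the series' design text cDNA was made independently for each array, but separate cultures are not mentioned, so every p-value reflects array-to-array spread that may be technical.

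EGFR is a receptor tyrosine kinase whose signalling through RAS and ERK can push cells from rest into the division cycle. Entry into mitosis is driven by CDK1 bound to cyclin B, helped by Polo and Aurora kinases. The spindle checkpoint then blocks the anaphase-promoting complex, a ubiquitin ligase, until every kinetochore is attached. Transcripts of many of these genes are low in resting cells and peak in G2 and mitosis, so in a population their level follows both the share of dividing cells and the RNA per cell. On bulk arrays more dividing cells and more RNA per cell cannot be told apart.

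Each array had 42.9% to 46.9% of its probes well above background, and no spot was saturated. The 4 arrays shared 1 slide, but each group had a column of its own, so column and group cannot be told apart. Across the tested features the arrays of a group correlated at 0.9976 (wild type) and 0.9968 (deletion mutant), against 0.9605 to 0.9611 between groups (features are not independent replicates). All 10 fibroblast markers were measured, with 6 lower and 2 higher in deletion-mutant cells and a median log2 difference of -0.71. Of all features 24.2% were lower and 34.6% higher. Of the epithelial markers, Epcam, Cdh1, Krt18 and Cldn4 were not well above background on any array, while Krt14 was on all 4 and Esrp1 on 3. No probe of Krt5 was above background on more than 2 arrays, and Krt5 was not tested. Krt14 was lower in deletion-mutant cells (log2 fold change -0.42), and Esrp1 did not pass the threshold. The keratin Krt8 was above background on the deletion-mutant arrays alone, so it entered the test through the group where it is high, and it was at least 2.79-fold higher there. Of the leukocyte markers, Ptprc and Tyrobp were at background on every array, but Itgam, Cd68 and Cd3e were above it on all 4, with Itgam lower in deletion-mutant cells (log2 fold change -0.92). Of the endothelial markers, Cdh5, Vwf, Tek and Emcn were at background on every array, and Kdr and Pecam1 above it on all 4, with Pecam1 lower (-0.40). Whether any of these markers has a part in the mitotic result was not tested.

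Every one of the 54 mitotic genes was higher in deletion-mutant cells, by 1.41-fold to 4.50-fold, at an adjusted p between 0.000327 and 0.0209 by limma over all features. At the same threshold of 0.05, 34.6% of all tested features were higher and 24.2% lower (58.8% in either direction). Of these changed features 58.9% were higher, a share that was 73.5% with median scaling and 38.9% with scaling on detected probes. The fitted rise was at least 2-fold for 28 of the 54 (51.9%), against 5.94% of all features. One of the 28, Aurkb, was at background in wild-type cells and has only a lower bound under 2-fold. With such genes at their bound the count was 27 of 54 (50%), against 5.7% of all features. Cenpf and Ncapg, also among the 28, were not well above background on 1 wild-type array each. They too entered the test through the deletion-mutant arrays alone, and no bound was set for them. The median log2 fold change was 1.04 for the mitotic genes and 0.066 for all features, and 79% of all features lay below even the smallest mitotic change. The arrays of the groups did not overlap for any of the 54 genes, against 81.7% of all features without overlap in either direction and 46.4% with both deletion-mutant arrays above both wild-type arrays. Levels are given below as log2 of the probe's signal relative to the 75th percentile of its array, so a level of 0 equals that percentile, and they are not compared between probes.

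**Figure D1:**
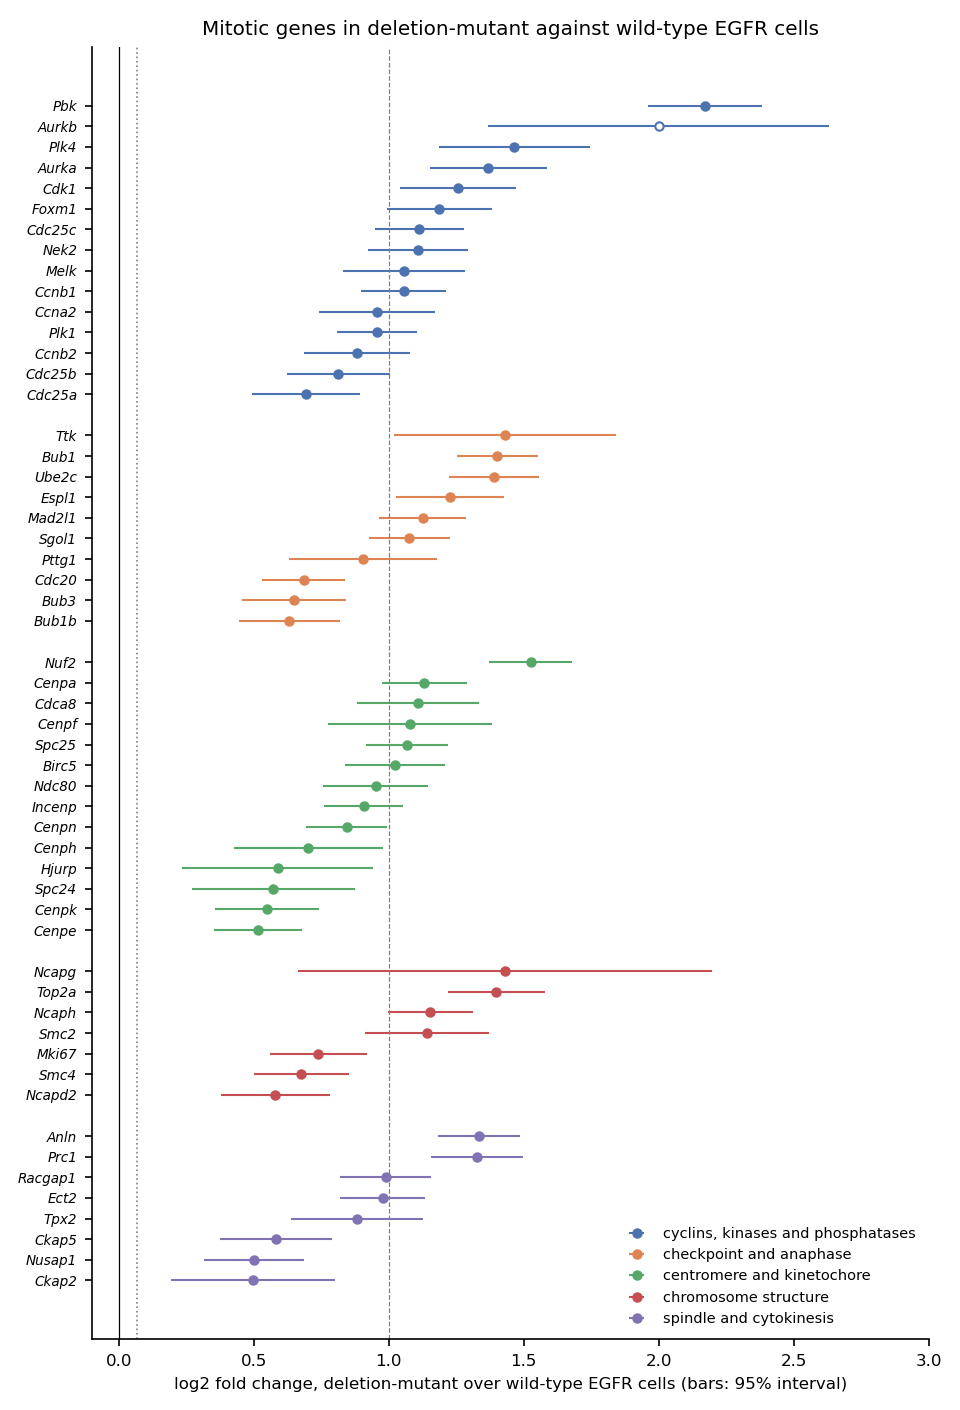
Log2 fold change of each mitotic gene in deletion-mutant over wild-type EGFR cells (x axis), grouped by role, with bars for the 95% interval from limma (n = 2 arrays per group). The dashed line marks a 2-fold rise, the dotted line the median of all features at 0.066, and the open circle Aurkb, which was at background in wild-type cells; every interval lies above 0.

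The role medians lay close together beside the range of single genes, as medians of several genes mostly do. Variation within and between roles was not tested. The medians were 1.11 (log2) for the 15 cyclins, kinases and phosphatases, 1.1 for the 10 checkpoint and anaphase genes, 0.93 for the 14 centromere and kinetochore genes, 1.14 for the 7 genes of chromosome structure and 0.93 for the 8 genes of spindle and cytokinesis. Within the cyclin and kinase group alone single genes ran from 0.69 to 2.17. With Aurkb at its bound, the count at 2-fold or more was 9 of 15, 6 of 10, 6 of 14, 4 of 7 and 2 of 8 in the same order (10 of 15 by the fitted value). With normexp background correction, an alternative to the scanner software's own, the median of chromosome structure was 0.74. Normexp was run with an offset of 50, a constant added to every corrected intensity. That constant by itself shrinks the fold changes of dim probes.

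**Figure D2:**
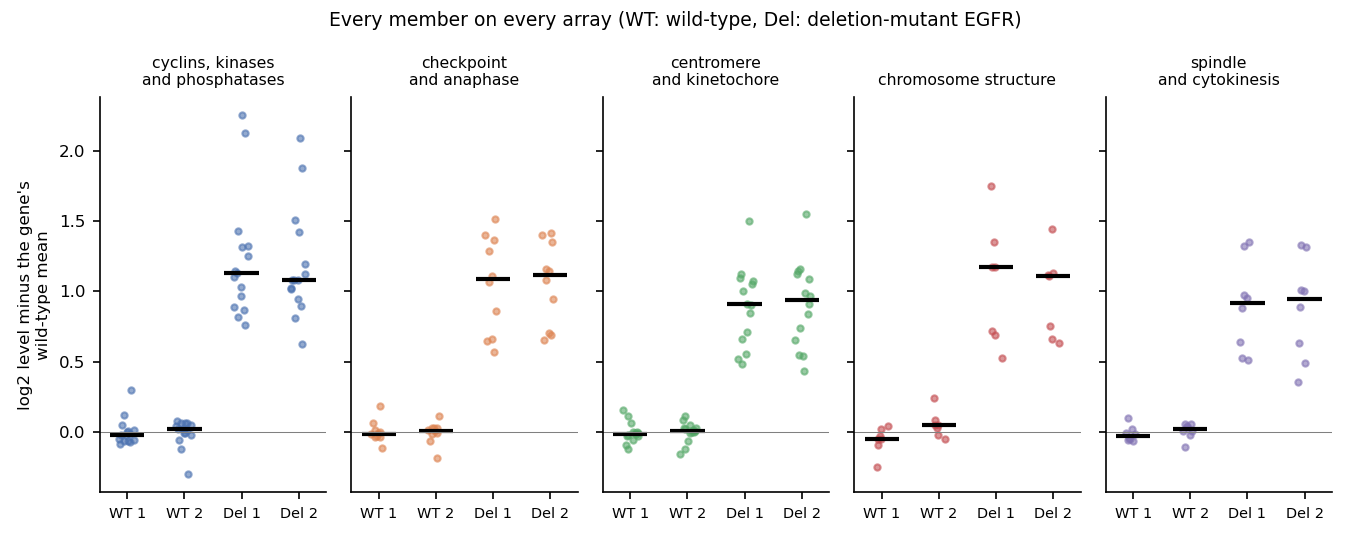
Level of every mitotic gene on each array, as the log2 difference from that gene's wild-type mean (y axis), in 1 panel per role, with black lines for the medians. The median on the deletion-mutant arrays lies between 0.91 and 1.17 in every panel, and no gene's deletion-mutant points reach its wild-type points.

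Among the cyclins and kinases measured above background in both groups, the largest rise was that of Pbk, a mitotic protein kinase that is abundant in proliferating and tumour cells (probe on chromosome 14, 66436224 to 66436283, mm9). Its level was 1.61 and 1.59 on the wild-type arrays and 3.85 and 3.69 on the deletion-mutant arrays. The groups were far apart beside their spread, with a 4.50-fold difference (log2 fold change 2.17 ± 0.077 SE, limma adjusted p = 0.000327). Plk4, the kinase that starts centriole duplication, stood at -2.03 and -2.27 in wild-type and at -0.72 and -0.65 in deletion-mutant cells. It was 2.76-fold higher (1.47 ± 0.10 SE), or 0.97 on the log2 scale with normexp correction.

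The Aurora kinases both rose. Aurka, which matures the centrosomes and helps to build the spindle, had 3.43 and 3.56 in wild-type and 4.81 and 4.92 in deletion-mutant cells, a 2.58-fold rise (adjusted p = 0.000754). Aurkb, the kinase of the chromosomal passenger complex that corrects faulty attachments, had -4.56 and -5.16 in wild-type cells, where its probe was not well above background on either array. In deletion-mutant cells it had -2.73 and -2.99. With this background correction only a lower bound can be given, at least 1.67-fold higher (limma adjusted p = 0.00328), and the gene entered the test through the deletion-mutant arrays alone. With normexp correction its log2 fold change was 0.45, which is below that bound, so the bound depends on the background correction, offset included. The Aurkb intensities were 14.6 and 10.3 in wild-type and 49.2 and 44.5 in deletion-mutant cells, all below the normexp offset of 50. How much of the lower value comes from that offset was not tested. The bound sets the deletion-mutant mean against the wild-type arrays' lowest signal that was well above background, or the probe's own where that was higher. With Aurkb at its bound the median of the 54 was 1.01.

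The engine of mitotic entry itself rose about as much as the typical mitotic gene. Cdk1, the catalytic kinase, had 2.50 and 2.60 in wild-type and 3.87 and 3.74 in deletion-mutant cells (2.39-fold, adjusted p = 0.000852). Its cyclin partners rose 2.08-fold (Ccnb1), 1.94-fold (Ccna2, which also acts in S phase) and 1.84-fold (Ccnb2), with no overlap between groups. The Cdc25 phosphatases remove the inhibitory phosphates from CDK1, and the 3 forms differed in size: 2.16-fold for Cdc25c, 1.76-fold for Cdc25b and 1.62-fold for Cdc25a. Cdc25b had 2.96 and 3.09 in wild-type and 3.84 and 3.83 in deletion-mutant cells, and Cdc25a had 1.36 and 1.39 against 2.13 and 1.99. The 95% intervals of Cdc25c (0.95 to 1.28, log2) and Cdc25a (0.49 to 0.89) did not overlap, but each gene had 1 probe and the intervals hold no spread between probes. Foxm1, the transcription factor that drives many G2 and mitotic genes, rose 2.28-fold (1.19 ± 0.072 SE). The Polo kinase Plk1 rose 1.94-fold, the centrosomal kinase Nek2 2.15-fold and Melk, a kinase of proliferating cells, 2.08-fold.

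In the checkpoint group the kinases Ttk and Bub1 had the largest fitted rises, with Ube2c close to them. Ttk (MPS1), which recruits the checkpoint to unattached kinetochores, had -2.74 and -3.12 in wild-type and -1.42 and -1.58 in deletion-mutant cells. The difference of 2.70-fold (1.43 ± 0.15 SE, adjusted p = 0.00259) had one of the wider intervals, and it was 0.59 (log2) with normexp correction. Bub1, a kinase that marks the inner centromere, rose 2.64-fold, from 0.96 and 0.99 to 2.38 and 2.37. The Bub1 probe (chromosome 2, 127626988 to 127627047, mm9) is printed 10 times on each array, and the SD between these spots was 0.034 to 0.095 (log2). That spread is technical and holds no variation between samples. Between the groups the log2 difference was 1.40 ± 0.055 SE (limma adjusted p = 0.000379). The inhibitory subunit Mad2l1 rose 2.18-fold, and the smallest rises of the group were those of the other checkpoint components Bub3 (1.57-fold) and Bub1b, BUBR1 (1.55-fold). Bub3 had 3.88 and 3.76 in wild-type and 4.46 and 4.47 in deletion-mutant cells. Bub1b had 1.84 and 1.83 in wild-type and 2.40 and 2.52 in deletion-mutant cells. The intervals of Bub1 (1.25 to 1.55) and Bub1b (0.45 to 0.82) lie apart.

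Genes that release anaphase rose as well. Ube2c, the ubiquitin-conjugating enzyme that works with the anaphase-promoting complex, went from 3.65 and 3.71 to 5.04 and 5.09 (2.62-fold, adjusted p = 0.000473). Cdc20, the activator that the checkpoint holds in check, rose 1.61-fold. Espl1 (separase), the protease that cuts cohesin, rose 2.34-fold, while its inhibitor Pttg1 (securin) rose 1.87-fold, with overlapping intervals. Sgol1, now named Sgo1, which shields centromeric cohesin, rose 2.11-fold.

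Among kinetochore genes, subunits of 1 complex differed in size. The Ndc80 complex, which binds the microtubule end, has the subunits Ndc80, Nuf2, Spc24 and Spc25. Nuf2 (probe on chromosome 1, 171428989 to 171429048, mm9) led them with 1.15 and 1.16 in wild-type and 2.66 and 2.71 in deletion-mutant cells (2.88-fold, 1.53 ± 0.056 SE, adjusted p = 0.000339). Spc25 rose 2.10-fold and Ndc80 1.93-fold. Spc24 had 1.15 and 1.14 in wild-type and 1.86 and 1.58 in deletion-mutant cells, a rise of 1.49-fold (adjusted p = 0.0136), and without either wild-type array its adjusted p was 0.0704 or 0.0715. The interval of Nuf2 (1.37 to 1.68, log2) lay above those of Ndc80 (0.76 to 1.14), Spc25 (0.92 to 1.22) and Spc24 (0.27 to 0.87).

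At the centromere, Cenpa, the histone variant that marks it, rose 2.19-fold, from 3.52 and 3.58 to 4.67 and 4.69. Hjurp, the chaperone that deposits CENP-A, rose less: it had -0.23 and -0.55 in wild-type and 0.13 and 0.26 in deletion-mutant cells (1.50-fold, adjusted p = 0.0195). That call was lost without the second deletion-mutant array (adjusted p = 0.0544). Subunits of the inner kinetochore rose by 1.80-fold (Cenpn), 1.63-fold (Cenph) and 1.46-fold (Cenpk, from 1.40 and 1.27 to 1.89 and 1.88). Cenpf, a large protein of the outer kinetochore, was not well above background on the second wild-type array. It therefore entered the test through the deletion-mutant arrays alone. Cenpf had -2.96 and -3.19 in wild-type and -2.07 and -1.91 in deletion-mutant cells. Its fitted rise was 2.11-fold, or 0.52 (log2) with normexp correction. The kinetochore motor Cenpe had the smallest rise of the group, from 4.41 and 4.45 to 4.91 and 4.98 (1.43-fold, adjusted p = 0.00332), which was 0.27 (log2) under quantile normalization. Of the passenger complex, Cdca8 (borealin) rose 2.16-fold, from 4.18 and 4.36 to 5.37 and 5.40, Birc5 (survivin) 2.03-fold and Incenp, its scaffold, 1.87-fold.

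Chromosome structure split in the same uneven way. Top2a, the topoisomerase that untangles sister chromatids (probe on chromosome 11, 98855522 to 98855581, mm9), had 2.49 and 2.55 in wild-type and 3.88 and 3.97 in deletion-mutant cells (2.64-fold, 1.40 ± 0.066 SE, adjusted p = 0.000538). The condensin I complex, which compacts chromosomes, consists of Smc2, Smc4, Ncapd2, Ncapg and Ncaph. Ncaph rose 2.23-fold, from 3.03 and 2.99 to 4.18 and 4.14, and Smc2 rose 2.21-fold. Smc4 rose less, from 4.05 and 4.15 to 4.79 and 4.76 (1.60-fold), as did Ncapd2, from 4.48 and 4.39 to 4.96 and 5.07 (1.50-fold). Ncapg had -3.35 and -2.86 in wild-type and -1.36 and -1.99 in deletion-mutant cells. Its 2.70-fold difference carried the largest error of the 54 (1.43 ± 0.28 SE), its probe was not well above background on the first wild-type array, and without that array the adjusted p was 0.0692. Ncapg therefore entered the test through the deletion-mutant arrays alone, and with normexp correction it was 0.57 higher on the log2 scale. Mki67 (Ki-67), the coat protein of mitotic chromosomes used as a proliferation marker, rose 1.67-fold, from 4.51 and 4.61 to 5.28 and 5.32.

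The spindle and cytokinesis group ran from 0.50 to 1.33 on the log2 scale, and Anln and Prc1 were the 2 genes above 2-fold. Anln (anillin), the scaffold of the contractile ring, had 4.14 and 4.16 in wild-type and 5.50 and 5.47 in deletion-mutant cells (2.52-fold, adjusted p = 0.000426). Prc1, which bundles microtubules in the midzone, rose 2.51-fold, from 3.84 and 3.93 to 5.21 on both arrays. Racgap1 and Ect2, which together activate RhoA at the furrow, rose 1.98-fold and 1.97-fold, with Racgap1 going from 3.11 and 3.19 to 4.12 and 4.16. Tpx2, which nucleates spindle microtubules, rose 1.84-fold, with an interval (0.64 to 1.13, log2) that overlaps those of Racgap1 (0.82 to 1.16) and Ect2 (0.82 to 1.14). Smaller fitted rises were those of the microtubule polymerase Ckap5 (1.50-fold) and Nusap1, which bundles spindle microtubules (1.41-fold). Nusap1 had 2.25 and 2.37 in wild-type and 2.82 and 2.80 in deletion-mutant cells. Ckap2 had 1.61 and 1.62 in wild-type and 2.25 and 1.97 in deletion-mutant cells, the smallest rise of the 54 (1.41-fold, 0.50 ± 0.11 SE, adjusted p = 0.0209). Its adjusted p was 0.0961 and 0.0915 without the first and the second wild-type array, and 0.0738 when scaled on detected probes.

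Several probes were available for 16 of the 54 genes. Of all 76 probes, 74 were higher past the threshold in a fit of every probe by itself, and none was lower. The 2 exceptions were dim probes: one for Cdk1 (log2 fold change 0.67, interval -0.47 to 1.80, limma adjusted p = 0.235) with -4.03 and -3.04 in wild-type and -3.18 and -2.56 in deletion-mutant cells, and one for Nuf2 (1.12, interval 0.059 to 2.18, adjusted p = 0.0699). Other probes of a gene mostly gave the same size, such as 1.02 to 1.06 for the 3 probes of Birc5 and 0.98 to 0.99 for the 2 of Racgap1. The 3 probes of Mad2l1 gave 0.80 to 1.13 and the 2 of Ect2 gave 0.59 to 0.98, so the size for these genes depends on the probe. The intervals compared between genes above hold no such probe effect, so gaps between them cannot be assigned to the genes alone.

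**Figure D3:**
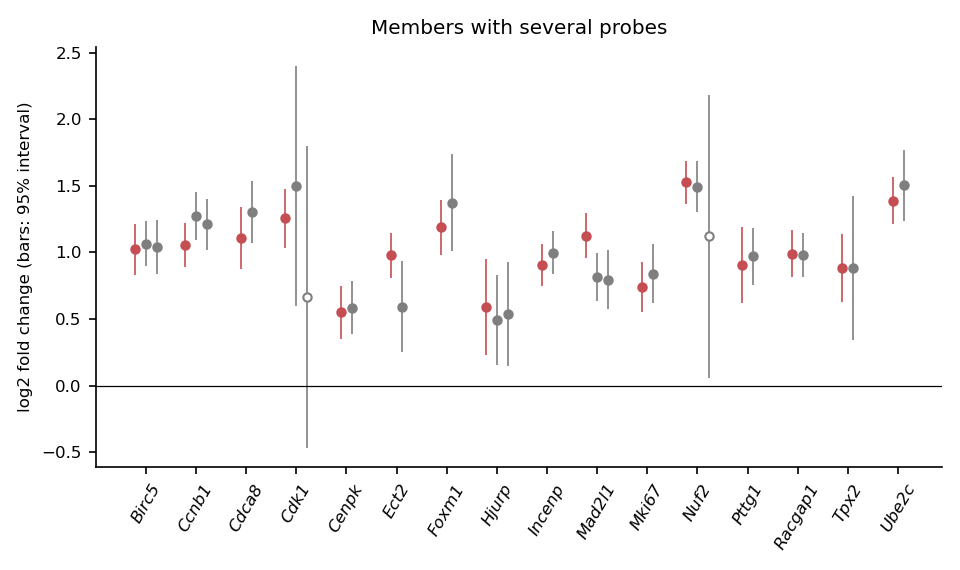
Log2 fold change of every probe for the 16 mitotic genes with several probes, with 95% intervals; red marks the brightest probe, grey the others, and open circles a probe that did not pass the threshold. The open circles belong to Cdk1 and Nuf2, and every point lies above 0.

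Most other genes of the same machinery rose as well, where 34.6% of all features rose and 24.2% fell. Of 30 other kinetochore and centromere genes 26 rose (median log2 fold change 0.86), led by Oip5, which helps to load CENP-A (1.45), and Sgol2, a shugoshin (1.39), and none fell. Of 23 other mitotic regulators 20 rose (median 1.00), among them Mybl2, a transcription factor of the MuvB complex (1.45), and Cdca5, sororin (1.36), and Lin37 fell (-0.26). Of 28 other spindle and cytokinesis genes 26 rose (median 0.82), led by Fam64a (1.79) and the centriole factor Stil (1.35), and Numa1 fell (-0.47). The 13 mitotic kinesins all rose (median 1.01), with Kif18a first (1.71). Kifc1 is counted in the spindle list as well.

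Of the 12 measured subunits and coactivators of the anaphase-promoting complex 4 rose (33.3%) and 1 fell (8.33%), beside 34.6% and 24.2% of all features, with a median of 0.12 beside 0.066 for all features. Fzr1, the coactivator of late mitosis and G1, rose by 0.62 (log2) and Anapc1 by 0.34, and Anapc13 fell (-0.36). Cohesin and condensin II lay in between (11 of 14 rose, median 0.50), with the cohesin acetyltransferase Esco2 (1.25) and the condensin II subunit Ncapg2 (1.12) first. Of 36 genes of replication licensing and the fork 34 rose (median 1.17), led by Cdc6 (1.77) and Cdc45 (1.76), while Cdc7 (0.26) and Gins3 (0.024) did not pass. No test was made of the differences between these lists.

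Of 10 CDK inhibitors and pocket proteins, which hold the cycle back, 7 were measured. Of these 3 rose (42.9%) and 2 fell (28.6%), shares near the 34.6% and 24.2% of all features, with a median of 0.022. Rbl1 (p107), itself a gene of the G1/S wave, rose by 1.39 (log2), Cdkn2d by 0.91 and Cdkn1a by 0.28, while Cdkn1b (p27) fell (-0.48) and Rb1 fell (-0.26). Cdkn2a was not well above background on any array; NIH3T3 cells are known to lack this locus.

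**Figure D4:**
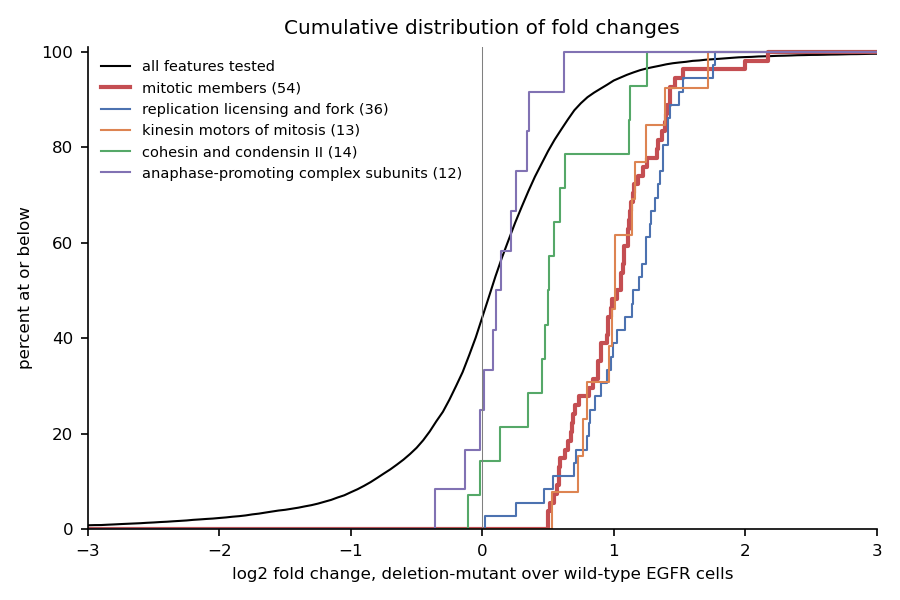
Percent of genes (y axis) at or below each log2 fold change (x axis) for all 18093 features, the 54 mitotic genes and related lists. The curve of the mitotic genes starts at 0.50 and has its median at 1.04, close to kinesins (1.01) and replication genes (1.17), while that of the anaphase-promoting complex has its median at 0.12.

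The members were listed as mitotic genes, but with earlier results of these data known, and their promoters were searched for shared words. Many mitotic promoters are known to carry the CHR, a TTTGAA element bound by MuvB complexes, and CCAAT boxes bound by NF-Y. RefSeq's promoter sequences (GRCm38.p6, 250 bases before to 50 after a gene's start) held 45 of the 54 genes, with 50 promoters. TTTGAA, searched on both strands, was found in 31 of these 50 (62%), against 17.9% of all 32851 promoters and 16% of the 21263 promoters of protein-coding genes. CCAAT, on both strands, was in 40 (80%), against 37.4% of all and 38.2% of the protein-coding ones. Both words occurred in 29 (58%), against 6.95% of all. The E2F words TTTCCCGC or TTTGGCGC were in 3 (6%), against 1.56% of all and 2.02% of the protein-coding ones.

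TTTGAA was in 10 of 12 promoters of the mitotic kinesins, in 7 of 35 of the replication genes and in 1 of 12 of the anaphase-promoting complex. The E2F words were in 2, 10 and 0 of the same promoters. Among the 45 mitotic genes in the table, the 28 with TTTGAA had a median log2 fold change of 1.03 (range 0.50 to 1.43) and the 17 without it 1.06 (range 0.50 to 1.53). No test of that difference was made, and Pbk and Aurkb are among the genes without an entry. A match is a description of these letters and not of a bound site.

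The 250 bases before the start are shown for the marker genes Top2a, Bub1 and Ttk, for the 3 genes with the largest rise among those whose promoter could be shown (Nuf2, Plk4 and Ncapg) and for Ckap2, the gene with the smallest. Each runs 5′ to 3′ on the gene's own strand in GRCm38.p6, with capitals for TTTGAA or CCAAT on either strand (TTCAAA and ATTGG are the same words on the other strand). They lie at chr11:99024190-99024439 (Top2a, minus strand), chr2:127831860-127832109 (Bub1, minus), chr9:83834439-83834688 (Ttk, plus), chr5:45669675-45669924 (Ncapg, plus), chr1:169531465-169531714 (Nuf2, minus), chr3:40799701-40799950 (Plk4, plus) and chr8:22185820-22186069 (Ckap2, minus).
Top2a: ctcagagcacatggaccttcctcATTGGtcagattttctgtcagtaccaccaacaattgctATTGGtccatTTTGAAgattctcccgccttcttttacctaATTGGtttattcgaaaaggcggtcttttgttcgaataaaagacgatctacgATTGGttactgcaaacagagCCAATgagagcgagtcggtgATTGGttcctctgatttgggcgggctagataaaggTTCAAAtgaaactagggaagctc
Bub1: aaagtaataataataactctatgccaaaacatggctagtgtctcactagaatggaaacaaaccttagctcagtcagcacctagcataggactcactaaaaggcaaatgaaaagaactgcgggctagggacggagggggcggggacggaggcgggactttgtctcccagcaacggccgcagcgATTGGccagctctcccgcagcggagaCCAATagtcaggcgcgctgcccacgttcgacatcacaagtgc
Ttk: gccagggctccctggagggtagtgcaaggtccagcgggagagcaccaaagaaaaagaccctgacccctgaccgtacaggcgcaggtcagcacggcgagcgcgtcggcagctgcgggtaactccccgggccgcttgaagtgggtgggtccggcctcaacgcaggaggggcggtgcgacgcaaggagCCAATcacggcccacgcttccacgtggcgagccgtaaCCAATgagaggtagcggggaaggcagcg
Ncapg: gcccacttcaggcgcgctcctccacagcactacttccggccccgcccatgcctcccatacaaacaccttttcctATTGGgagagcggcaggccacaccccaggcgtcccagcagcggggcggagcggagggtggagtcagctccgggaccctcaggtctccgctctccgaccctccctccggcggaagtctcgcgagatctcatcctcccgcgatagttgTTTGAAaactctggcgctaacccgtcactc
Nuf2: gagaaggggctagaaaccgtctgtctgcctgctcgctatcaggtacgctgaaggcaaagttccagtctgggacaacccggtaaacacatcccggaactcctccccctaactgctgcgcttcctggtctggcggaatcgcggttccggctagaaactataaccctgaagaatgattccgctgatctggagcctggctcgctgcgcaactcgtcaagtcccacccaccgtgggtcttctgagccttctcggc
Plk4: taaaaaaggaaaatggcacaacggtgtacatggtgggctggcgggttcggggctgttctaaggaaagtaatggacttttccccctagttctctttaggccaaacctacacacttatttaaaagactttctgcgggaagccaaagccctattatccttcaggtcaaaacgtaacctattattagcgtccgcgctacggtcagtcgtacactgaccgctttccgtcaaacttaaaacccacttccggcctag
Ckap2: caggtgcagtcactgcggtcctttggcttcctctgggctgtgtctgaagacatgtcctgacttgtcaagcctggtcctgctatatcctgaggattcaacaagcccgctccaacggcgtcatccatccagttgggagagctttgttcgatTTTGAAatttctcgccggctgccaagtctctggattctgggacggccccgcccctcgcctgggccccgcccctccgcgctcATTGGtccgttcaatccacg

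Top2a holds 8 matches in these 250 bases, including a TTTGAA on the other strand that begins 23 bases before the start, and Ncapg holds a TTTGAA that begins 30 bases before it. Bub1 and Ttk hold a pair of CCAAT boxes each and no TTTGAA in the bases shown. Ttk has 1 TTTGAA after its start, within the 50 bases that were searched but are not shown, and is counted with the element above. None of the other genes shown has a match there. Nuf2 and Plk4, with rises of 2.88-fold and 2.76-fold, hold neither word, while Ckap2, with the smallest rise, holds 1 of each.

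The scaling of the arrays set the size of the rise but not its direction. Median scaling moved the median of all features by 0.18 (log2) and scaling on detected probes by -0.19. All 54 genes had a positive fold change under each, and 54 and 52 of them passed. Relative to all features the median of the 54 was 0.97 higher under each of these scalings by construction, and 0.84 higher under quantile normalization, which is not a constant shift. The count at 2-fold or more by the fitted values was 38 under median scaling, 18 under quantile normalization and 14 on detected probes.

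**Figure D5:**
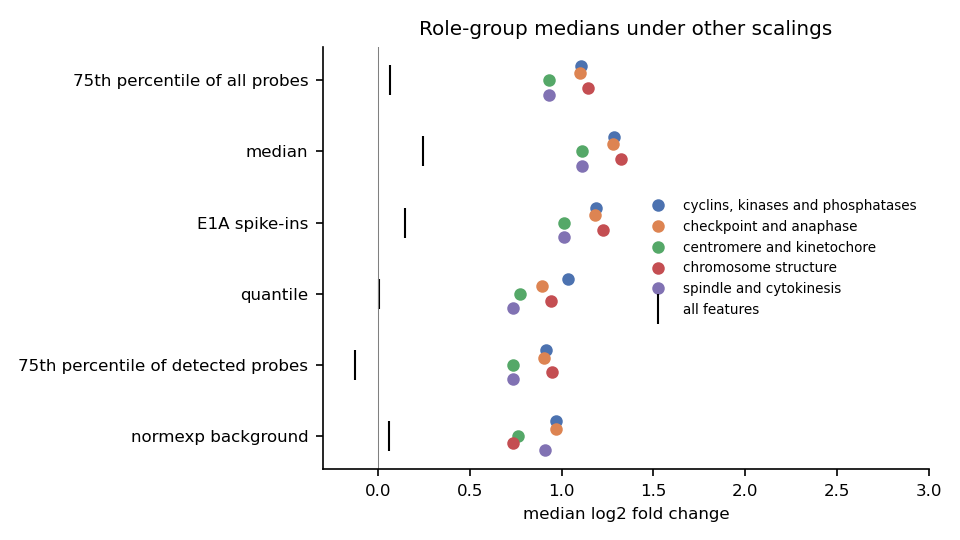
Median log2 fold change (x axis) of each role group (circles) and of all features (black ticks) under the main scaling, 4 other scalings and normexp background correction. Role medians lie between 0.73 and 1.32 and stay above the tick of all features in every row; the order of the roles differs between rows.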

How the data were processed

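Cy3-labelled cRNA of 4 samples was hybridised to 1-colour Agilent arrays. The scans were quantified with Feature Extraction 10.10.1.1, per the file headers, under protocol GE1_1010_Sep10, with probe coordinates on mm9. The deposited files give each spot's processed signal as intensity, background-subtracted and detrended, with flags of 0 or 1. The authors' deposited log2 matrix equals that signal plus 1 constant per array.

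Flagged and control spots were left out, repeat spots were averaged as log2, and each array's 75th percentile was subtracted. Kept were 25162 probes well above background on both arrays of a group; a gene was its brightest kept probe. Exon or intron position was not analysed here. Groups were compared with limma 3.58.1 in R 4.3.3 (lmFit, eBayes, 2 residual degrees of freedom), adjusted by Benjamini and Hochberg over 18093 features. The procedure was tested on simulated data. All 54 accessions matched RefSeq. Figures used Python 3.11.15 and matplotlib 3.10.9. With 2 arrays per group the number of arrays limits the precision.

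The members and lists were chosen with earlier results of these data known. Every member is given, with array values for the 3 largest and 2 smallest changes of each role, the markers, and members that are dim or have probes that disagree; of other lists, the largest changes. Alternatives were other background corrections, scalings, filters, variance models, probe choices, the replicate block and leaving out each array.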

Additional observations from a re-analysis of the deposited data

How the results depend on the processing

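All 54 members had a positive fold change under each alternative that tested them; only the filter on all 4 arrays tested fewer (51). Over the combinations of a member and an alternative, 849 kept their call, 12 lost it and 0 reversed. The lost calls were those of Hjurp, Spc24, Ncapg and Ckap2. Members that passed numbered 50 with no filter on dim probes, where 34816 features were tested and the features past the threshold fell from 10631 to 6466. Without 1 array, 51 to 54 members and 7815 to 9561 features passed, 25 to 31 members were at least 2-fold higher, and the median of the members was 0.9957 to 1.04. The role medians (in the order cyclins and kinases, checkpoint, centromere, chromosome structure, spindle) were then 1.08 to 1.13, 1.09 to 1.11, 0.90 to 0.94, 1.05 to 1.17 and 0.87 to 0.97.

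The median of the members and the role medians in that order were 0.93, 0.97, 0.97, 0.76 and 0.74 with normexp (the spindle median stayed within its spread), 0.84, 1.03, 0.89, 0.78, 0.94 and 0.73 under quantile normalization, 1.22, 1.29, 1.28, 1.11, 1.32 and 1.11 under median scaling, and 1.22, 1.29, 1.28, 1.11, 1.32 and 1.11 with the authors' values. On detected probes they were 0.84, 0.91, 0.91, 0.73, 0.95 and 0.74, and on E1A spike-ins 1.12, 1.19, 1.18, 1.01 and 1.01 (chromosome structure within its spread). At least 2-fold higher were 18 members under quantile normalization and 14 on detected probes, against 28. With only probes above background on all 4 arrays the median of the members was 0.99 and that of chromosome structure 0.94. With the mean of a gene's probes or every probe by itself the checkpoint median was 1.01 and the spindle median 0.83, and the members' median was 1.01 by single probes. The share of changed features that were higher was 51.1% under quantile normalization and 65.9% on spike-ins.

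With the replicate number, which is also the row on the slide, as a block, 5872 features were higher and 4118 lower, 54 members passed and 28 were at least 2-fold higher. The labels do not say that the number pairs samples, and the replicate differences of the groups correlated at 0.047 over features. Dim probes limit the sizes of Aurkb, Ttk, Ncapg and Cenpf: normexp gave 0.45, 0.59, 0.57 and 0.52 (log2). The normexp values include the shrinkage from its offset of 50. Quantile normalization lowered Bub3 to 0.41, Cdc20 to 0.44, Smc4 to 0.44, Ncapd2 to 0.34, Ckap5 to 0.35 and Nusap1 to 0.32. Scaling on detected probes lowered Cenpe to 0.32, Cenpk to 0.35, Spc24 to 0.38, Ncapd2 to 0.39, Hjurp to 0.39 (adjusted p = 0.0680 by limma), Nusap1 to 0.31 and Ckap2 to 0.30.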
